A study of Mus musculus with 4 samples.

Results

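The Wnt ligands, their receptors and their inhibitors were described in chromatin accessibility data of mouse oligodendrocyte progenitor cells (OPCs) and oligodendrocytes (OLs). The set holds 48 listed genes, chosen by name from 21887 protein-coding genes, and all 48 symbols matched the annotation. It comprises 18 Wnt ligands, 17 receptors and co-receptors, 8 secreted inhibitors and 5 inhibitors that act at the membrane or in the cytoplasm. The assay was Omni-ATAC-seq: the transposase Tn5 cuts open DNA and adds sequencing adapters, here in 50000 cells per library. The lines 129O1 and EpiSC5, both epiblast stem cells, each gave 1 OPC and 1 OL library, so n = 2 per cell type. No genetic change is named for either line. The labels name the source strains 129SvEv and 129S1/SvImJ without tying either one to a line beyond the order of the names. OPCs were derived from the epiblast stem cells, which are pluripotent cells of the early mouse embryo, and the morphogen SHH was left out when they were maintained and differentiated. Their medium held the mitogens bFGF and PDGFA (20 ng/mL of either), and cells positive for CD140a and NG2 were sorted after 4 passages and expanded. OLs were sorted for the O1 antigen, and neither the age of the culture nor the OL medium is given in the sources used here. Each line is a single cell line grown in culture, and the labels do not say whether libraries stem from separate differentiations. The p-values therefore reflect only the spread between these libraries, which may be technical.

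Wnt proteins are secreted, lipid-modified signals. They bind Frizzled receptors (Fzd) and, for the branch that stabilises beta-catenin, the co-receptors Lrp5 and Lrp6, whereas Ror1 and Ror2 serve branches that do not use beta-catenin. In the oligodendrocyte lineage, strong beta-catenin signalling is known to hold back differentiation of the OPC, and the ligands Wnt7a and Wnt7b made by OPCs are known to act on brain blood vessels.

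The measure was the sequence covered by called peaks in each gene's mm10 interval plus 2 kb on each side, scaled to the mean total length of the 4 lists and given in kb. A listed peak means that the authors' caller found enrichment, and a region without one need not be closed. OLs were compared with OPCs by limma across all genes on log2(covered bp + 200), where a fold is understated if coverage is low, with a Benjamini-Hochberg adjusted p below 0.05 as the threshold. Of the 48 genes, 42 had a mean coverage of at least 500 bp and were tested. The other 6, Wnt1, Wnt2, Wnt10b, Wnt16, Sfrp5 and Dkk1, were described only. Library totals lay between 35.02 and 44.11 Mb in 125002 to 152595 peaks, and the read depth is unknown. Of the oligodendrocyte markers, 5 of 7 tested rose in OLs, and their summed coverage was 4.99 and 7.87 kb in OPCs against 14.5 and 14.9 kb in OLs (129O1 first). Of 7 tested progenitor markers 1 rose and none fell, with sums of 13.85 and 14.17 kb in OPCs and 15.05 and 15.06 kb in OLs. The marker that rose was Sox10, which oligodendrocytes also express. Pdgfra and Cspg4, which encode the sorted antigens, had peaks in all 4 libraries and did not pass the test. Log2 differences were 0.26 for Pdgfra, 0.09 for Cspg4 and 0.08 for Olig1, and -0.17 for Ptprz1, -0.21 for Olig2 and -0.02 for Gpr17.

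Promoter windows, from 250 bases before to 50 after a start site, were listed for 32 of the 48 genes, taken from RefSeq on GRCm38.p6, the assembly of mm10. A listed start site can lie inside the gene interval and not at its end, as it does for Wnt6 and, by 0.571 kb, for Sfrp2. A set of 3 is shown because a part of the window that was covered in OPCs lay outside the peaks in OLs. Capitals mark the bases that lay inside a peak in both OL libraries. The first belongs to the secreted inhibitor gene Sfrp2 (chr3:83766071-83766370, plus strand), the second to the receptor gene Lgr6 (chr1:135105227-135105526, minus strand) and the third to the ligand gene Wnt6 (chr1:74771642-74771941, plus strand). Sfrp2 and Wnt6 keep capitals at an edge of the window, and Lgr6 in the part next to the start.
Sfrp2: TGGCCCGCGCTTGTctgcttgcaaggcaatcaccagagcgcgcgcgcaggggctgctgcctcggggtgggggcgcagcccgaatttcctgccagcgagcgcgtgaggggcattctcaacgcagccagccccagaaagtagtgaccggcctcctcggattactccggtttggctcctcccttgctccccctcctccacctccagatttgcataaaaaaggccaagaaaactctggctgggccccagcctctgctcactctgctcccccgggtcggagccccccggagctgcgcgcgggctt
Lgr6: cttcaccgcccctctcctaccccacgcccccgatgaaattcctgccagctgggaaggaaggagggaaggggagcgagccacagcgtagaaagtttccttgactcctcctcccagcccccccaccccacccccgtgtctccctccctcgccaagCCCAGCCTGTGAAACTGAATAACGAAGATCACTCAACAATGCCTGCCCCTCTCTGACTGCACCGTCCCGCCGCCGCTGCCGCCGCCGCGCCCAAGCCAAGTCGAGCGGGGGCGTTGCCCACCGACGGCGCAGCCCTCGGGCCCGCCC
Wnt6: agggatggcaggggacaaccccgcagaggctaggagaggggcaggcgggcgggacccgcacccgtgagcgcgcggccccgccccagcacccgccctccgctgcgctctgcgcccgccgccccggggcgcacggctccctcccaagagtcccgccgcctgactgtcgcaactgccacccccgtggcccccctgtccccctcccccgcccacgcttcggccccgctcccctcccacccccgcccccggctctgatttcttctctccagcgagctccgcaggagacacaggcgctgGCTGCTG

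The Sfrp2 window was covered over all 300 bases in both OPC libraries, and over 14 bases in 129O1 OLs and 37 bases in EpiSC5 OLs. Sfrp2 encodes a secreted protein that binds Wnts through a Frizzled-like domain. Of the 6759 coding-gene windows wholly covered in both OPC lists, 25, with Sfrp2 among them, had at most 37 covered bases in each OL list. The Lgr6 window went from 300 bases in both OPC libraries to 147 and 215 in OLs of 129O1 and EpiSC5. In the Wnt6 window 183 and 125 bases were covered in OPCs, against 18 and 7 in OLs, in the same order. The cell types did not overlap in these windows, which were picked for bases outside the OL peaks. Over all coding-gene windows with a peak, both OL libraries lay below both OPC libraries in 30.5%.

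A window of the inhibitor gene Dkk1 is shown because it holds the most matches, 3, to short motifs among the 36 listed windows of the set. Dkk1 encodes a secreted protein that blocks the co-receptors Lrp5 and Lrp6. Capitals here mark matches to CTTTGA, the core recognised by the TCF/LEF factors that act with beta-catenin, or CTTTGT, a core that TCF/LEF and Sox factors share, each searched on both strands, where they read TCAAAG and ACAAAG (chr19:30549447-30549746, minus strand).
Dkk1: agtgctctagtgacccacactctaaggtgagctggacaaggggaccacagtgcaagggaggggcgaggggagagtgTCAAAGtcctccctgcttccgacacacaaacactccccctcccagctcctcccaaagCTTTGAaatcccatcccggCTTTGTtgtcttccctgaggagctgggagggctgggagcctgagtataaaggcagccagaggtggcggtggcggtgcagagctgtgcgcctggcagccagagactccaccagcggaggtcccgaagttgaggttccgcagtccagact

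The Dkk1 matches start 174, 117 and 98 bases before the start site. The only peak over the gene lay at this promoter and had 0.200 kb in 129O1 OPCs, 0.290 kb in EpiSC5 OPCs, 0.1196 kb in EpiSC5 OLs and none listed in 129O1 OLs. Over the whole set, 5 of the 36 windows held CTTTGA (13.9%) and 7 held CTTTGT (19.4%). Over all 21263 windows of coding genes the shares were 14.4% and 16.8%. The 2 motifs differ in their last letter, so that a single match cannot belong to both. A match is a description of the letters and not of a bound site.

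**Figure D1:**
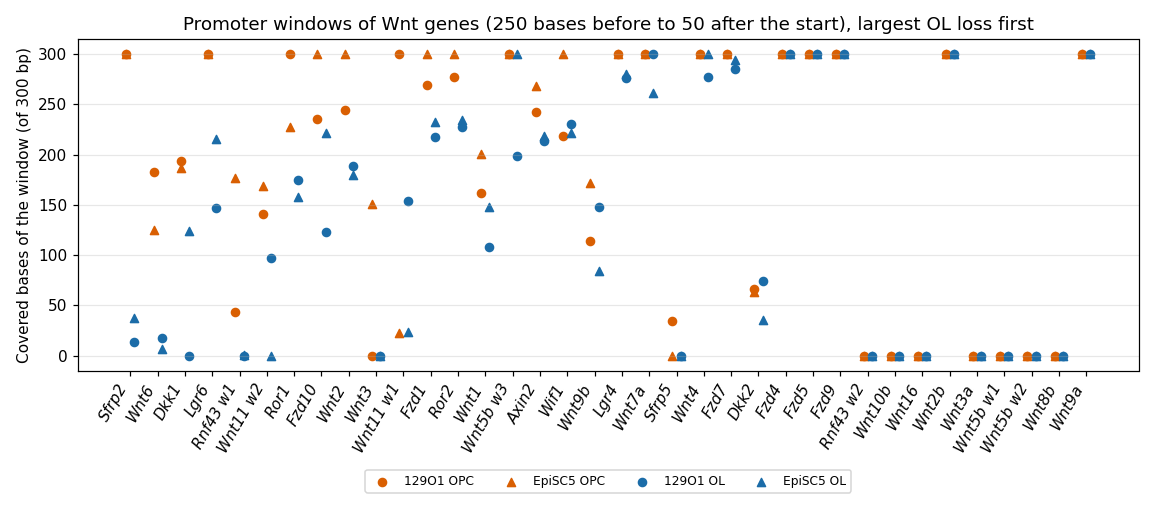
Covered bases (of 300) in each listed promoter window, with OPC libraries in orange and OL libraries in blue, circles for 129O1 and triangles for EpiSC5; windows of a gene with several are numbered w1 to w3. Sfrp2 lies farthest left, at 300 bases in both OPC libraries and 14 and 37 in OLs, and Wnt9a lies at 300 in all 4 libraries.

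Most promoters of the set were open in both cell types. Of the 32 genes with a listed window, 24 (75%) had a peak there in all 4 libraries, against 56.0% of all 17492 coding genes with one. None had a promoter peak in both libraries of 1 cell type and neither of the other. Such promoters are rare over all coding genes too, at 0.31% for OLs and 1.83% for OPCs. The promoters of Wnt3a, Wnt8b, Wnt10b and Wnt16 (12.5%) had no listed peak in any library, against 36.8% of all coding genes. The extent of the promoter peaks was smaller in OLs for many genes. Of the 29 windows with a peak, 15 had fewer covered bases in both OL libraries than in either OPC library and none had more. Over all 13140 such windows of coding genes these shares were 30.5% and 2.18%. With the better 50% of each list by q, an alternative chosen after seeing the data, 13 genes had a promoter peak in all 4 libraries.

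Taken over whole gene regions, 10 of the 42 tested genes fell in OLs and 1 rose. Over all 14543 tested genes, 8.63% fell and 11.0% rose (1255 and 1602 genes, and 386 and 197 without scaling), 19.6% in all. The genes that fell were the ligand genes Wnt5a, Wnt6, Wnt7a, Wnt7b and Wnt9b, the receptor genes Fzd7 and Lgr6, and the inhibitor genes Dkk3, Rnf43 and Znrf3. The gene that rose was the ligand gene Wnt4. The median log2 difference of the 42 genes was -0.24, against -0.02 for all tested genes. It was -0.20 in 129O1 and -0.23 in EpiSC5, where all tested genes had 0.01 and -0.05. In 22 of the 42 both OL libraries lay below both OPC libraries and in 7 above, which holds for 28.1% and 27.4% of all tested genes. The count of 10 was 6 without the EpiSC5 OPC library, 6 without the 129O1 OL library, 2 without scaling (Wnt5a and Wnt9b) and 1 by number of peaks, so it depends on the libraries, the scaling and the measure.

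**Figure D2:**
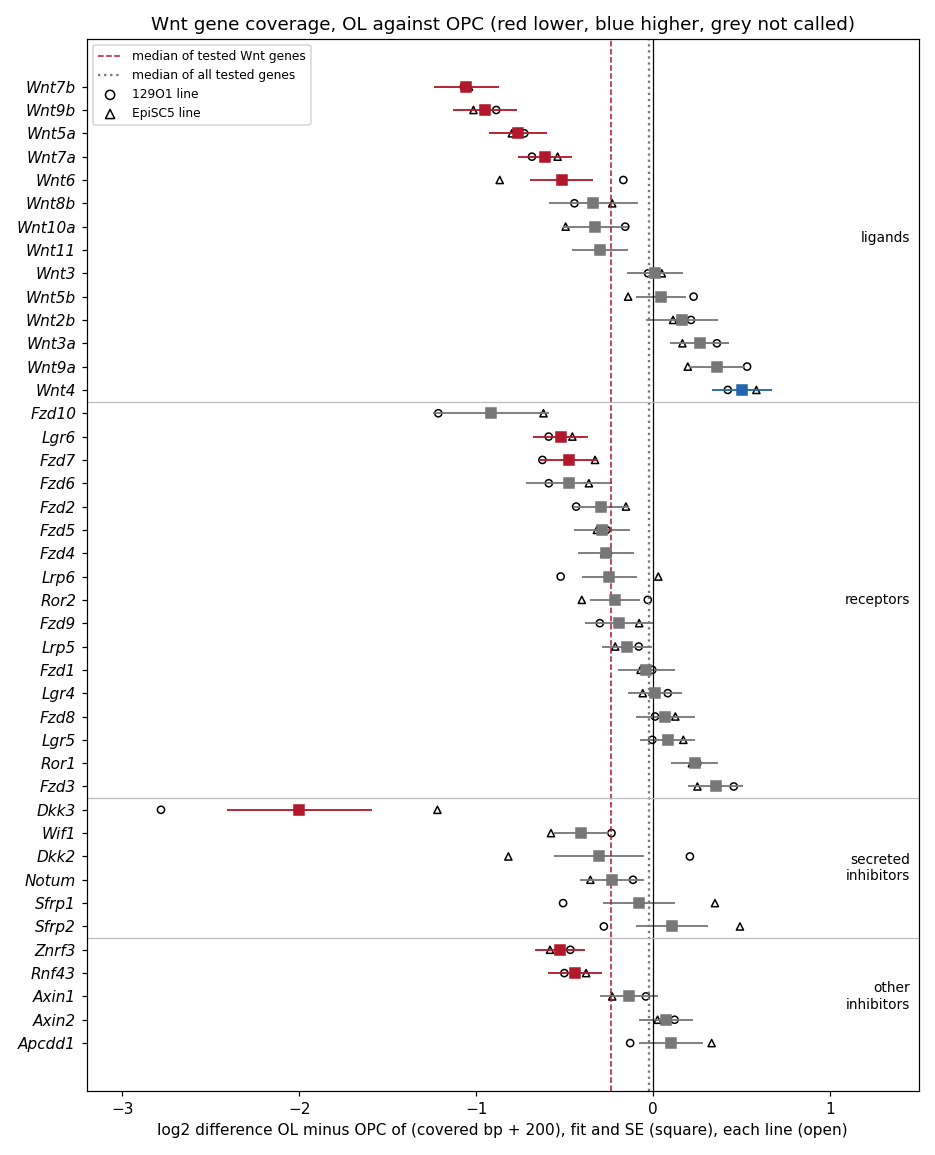
Log2 difference, OL minus OPC, of covered bp plus 200 for the 42 tested genes, grouped by role; squares with bars are the limma fit and its SE, open circles the 129O1 line and open triangles the EpiSC5 line. Red genes were called lower and the blue gene, Wnt4, higher, and the dashed line at -0.24 is the median of the set beside the dotted line at -0.02 for all tested genes.

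Some markers of other cell types fell too. Of 5 astrocyte markers 2 fell and none rose, with a summed coverage of 9.10 and 9.23 kb in OPCs and 6.75 and 6.38 kb in OLs (129O1 first). Of 5 vascular and mural markers 4 were tested and 3 fell, with sums of 6.17 and 6.89 kb in OPCs and 3.18 and 2.75 kb in OLs, and Cldn5, which defines endothelial cells of the brain, had no listed peak in any library. Of 5 neuron markers 2 fell, with sums of 24.2 and 27.8 kb against 24.7 and 24.5 kb. None of the 2 tested microglia markers passed, with sums of 2.75 and 2.51 kb against 2.43 and 2.80 kb. The 4 pluripotency markers had sums between 0.421 and 0.607 kb, and Pou5f1 and Zfp42 had no listed peak. The part of other cell types in the differences of the Wnt genes was not tested.

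The ligand genes held most of the calls. Of 14 tested, 5 fell, 1 rose and 8 did not pass. The shares that fell and rose were 35.7% and 7.14%, against 8.63% and 11.0% of all tested genes. Wnt7b (chromosome 15, 85535437 to 85581821) had 3.84 kb of peaks in 129O1 OPCs and 5.37 kb in EpiSC5 OPCs, against 1.73 kb and 2.51 kb in OLs. The OPC libraries differed from each other, yet both lay above both OL libraries. The mean fell from 4.605 ± 1.08 to 2.12 ± 0.551 kb (SD, n = 2), a 2.08-fold difference (log2 -1.05, SE 0.18, limma adjusted p = 0.000557). Peaks over the gene numbered 17 and 16 in OPCs and 8 and 12 in OLs. Wnt7b was the only gene of the set called lower by number of peaks, where 1.11% of all genes were. Its region held 5 OPC-only regions, meaning a peak in both OPC lists and in neither OL list, and 1 OL-only region, the converse. The OPC-only region with the most sequence spanned 85539173 to 85540111, with 224 and 939 covered bp in the OPC libraries. Limma's adjusted p was 0.0556 with median-of-ratios scaling, 0.0971 without scaling and 0.237 in the better 50% of each list, while the log2 difference stayed between -0.81 and -1.30 with any library left out.

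Its close relative Wnt7a (chromosome 6, 91363981 to 91411353) had 3.22 and 2.89 kb in OPCs of 129O1 and EpiSC5, and 1.93 and 1.92 kb in OLs. The OL values were almost alike and lay below both OPC values. The fall was 1.53-fold (log2 -0.61, SE 0.15, limma adjusted p = 0.0082), with an adjusted p of 0.0531 without the 129O1 OPC library, 0.052 without scaling and 0.399 by number of peaks. The merged region over the Wnt7a start site had 1322 and 1304 covered bp in OPC libraries, each in 1 peak, and 861 and 860 bp in OL libraries, in 2 separate peaks in 129O1 and 3 in EpiSC5. Inside the gene, 2 neighbouring OPC-only regions lay 31940 and 31450 bp downstream of the start (91379246 to 91379574 and 91379637 to 91380171). The larger of them had 423 and 505 covered bp, with the authors' fold enrichment at 9.76 and 6.19. The gene also gained 2 OL-only regions, at 91403980 to 91404145 and 91366915 to 91367150. Thus peaks within Wnt7a differed in both directions, while their sum was smaller in OLs.

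Wnt5a, the best-known ligand of the Ror receptors, lies on chromosome 14 (28504543 to 28527448). Its coverage was 1.63 and 1.67 kb in OPCs and 0.905 and 0.878 kb in OLs, in the order 129O1, EpiSC5. The libraries of a cell type were close to each other and the cell types were apart. The fall was 1.70-fold (log2 -0.76, SE 0.16, limma adjusted p = 0.00279), and it was called with any library left out and under each scaling tried, but not by number of peaks (adjusted p = 0.346) or by 200 bp around the summits (0.229). The shared region next to the gene's lower-coordinate end had 886 and 881 covered bp in the OPC libraries, 593 and 683 bp in the OL libraries, and 2 OPC-only regions lay on either side, at 28502711 to 28503033 and 28506523 to 28506847.

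Wnt9b (chromosome 11, 103727362 to 103775272) had 1.81 and 1.53 kb in OPCs and 0.885 and 0.656 kb in OLs of 129O1 and EpiSC5. Both OL values were below both OPC values. The fall was 1.93-fold (log2 -0.95, SE 0.18, limma adjusted p = 0.00104) and was also called without scaling, though not by number of peaks (adjusted p = 0.1304), in the better 50% of each list (0.069) or outside gene ends and promoter windows (0.0649). The region of its neighbour Wnt3 overlaps it, and 20.0% of the Wnt9b coverage is shared with other genes. Wnt3 itself had 1.61, 1.54, 1.58 and 1.6002 kb in 129O1 OPCs, EpiSC5 OPCs, 129O1 OLs and EpiSC5 OLs. These values overlapped, with a log2 difference of 0.01.

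Wnt6 (chromosome 1, 74754342 to 74785322) had 1.93 and 2.23 kb in OPCs and 1.70 and 1.13 kb in OLs, in the order 129O1, EpiSC5. The groups did not overlap, but the 129O1 OL library lay nearer to the OPCs than to the other OL library. The fall was 1.43-fold (log2 -0.52, SE 0.18, limma adjusted p = 0.0485, and 0.0908 in the fit blocked on the line). The call was lost in 14 of 18 alternatives. Among them were no scaling (limma adjusted p = 0.099) and median-of-ratios scaling (0.1045). A 50 bp pseudocount, no coverage filter, the number of peaks, the gene interval alone and 20 kb flanks also lost it. So did leaving out the EpiSC5 OPC library or the EpiSC5 OL library (log2 -0.26 without the latter). An OPC-only region of 146 bp lay in its listed promoter window, which is inside the gene interval, at 74771666 to 74771811. Its neighbour Wnt10a had 1.03 and 1.26 kb in OPCs and 0.905 and 0.84 kb in OLs and did not pass (adjusted p = 0.243).

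Wnt4 (chromosome 4, 137277635 to 137299501) was the ligand gene that rose. It had 1.21 and 0.968 kb in OPCs and 1.69 and 1.55 kb in OLs of 129O1 and EpiSC5. Both OL libraries lay above both OPC libraries. The rise was 1.42-fold (log2 0.50, SE 0.17, limma adjusted p = 0.0403), and the adjusted p was 0.35 without the EpiSC5 OPC library, 0.155 without the 129O1 OL library, 0.0708 without the EpiSC5 OL library and 0.0819 without scaling. Its promoter window was covered over 300 bases in 3 libraries and 277 in 129O1 OLs. OL-only sequence lay 16880 and 17260 bp downstream of the start, where 2 regions (137294319 to 137294707 and 137294760 to 137295021) had no listed peak in OPCs. The first had 360 and 381 covered bp in OLs, with a fold enrichment of 9.25 and 7.33 given by the authors' caller. Wnt4 also held 1 OPC-only region, with peaks 0.415 to 0.557 kb downstream of the start in 129O1 OPCs and 0.387 to 0.548 kb in EpiSC5 OPCs. With gene ends and promoter windows left out, the Wnt4 log2 difference was 1.57 (limma adjusted p = 0.0119). That alternative was chosen after seeing the data. The Wnt4 call was lost in 8 of 18 alternatives. Besides those above, these were no coverage filter, number of peaks, 200 bp around the summits and limma without trend.

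**Figure D3:**
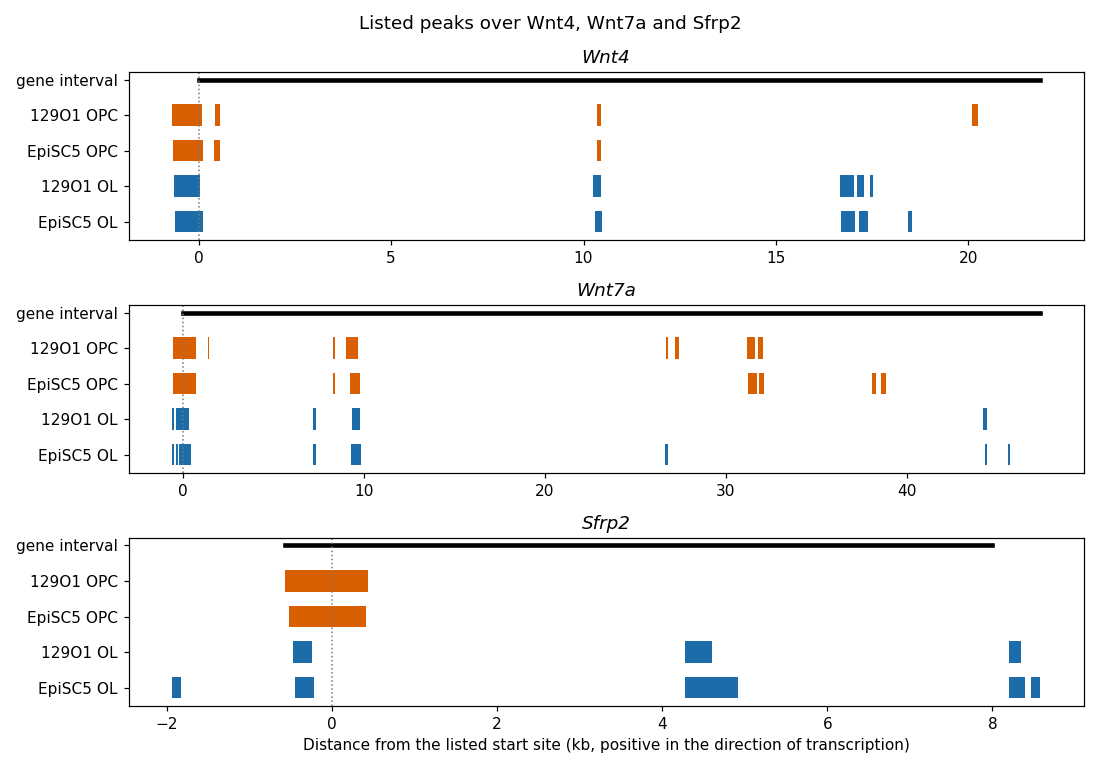
Peaks listed over Wnt4, Wnt7a and Sfrp2 by distance from the start site in kb; bars are peaks in each library, orange for OPC and blue for OL, and the black line is the gene interval. Wnt4 and Sfrp2 show peaks downstream of the start in both OL libraries and in neither OPC library. Wnt4 also shows a peak close to the start in both OPC libraries and in neither OL library, and Wnt7a shows peaks of both kinds.

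Among the ligand genes that did not pass, Wnt5b, a gene of 112 kb, had the most covered sequence in all, with 5.51, 7.01, 6.49 and 6.34 kb in 129O1 OPCs, EpiSC5 OPCs, 129O1 OLs and EpiSC5 OLs. The values overlapped between cell types, and 36.5% of its covered sequence lay in other gene regions. Wnt9a had 1.70 and 1.95 kb in OPCs and 2.55 and 2.26 kb in OLs (log2 0.36, limma adjusted p = 0.122), and Wnt3a 1.07 and 1.11 kb against 1.43 and 1.27 kb (log2 0.26, adjusted p = 0.312). In both of these neighbouring genes on chromosome 11 the OL values lay above the OPC values. Wnt2b, Wnt8b and Wnt11 had log2 differences of 0.16, -0.34 and -0.30. Of the ligand genes under the coverage minimum, Wnt2 had 0.621 and 0.668 kb in OPCs and 0.339 and 0.330 kb in OLs, and Wnt1 had 0.371 and 0.467 kb against 0.332 and 0.326 kb. Wnt10b had no listed peak in 129O1 OLs and 0.577 kb in EpiSC5 OLs, with 0.129 and 0.328 kb in OPCs, and Wnt16 had a single peak of 0.102 kb, in 129O1 OPCs.

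**Figure D4:**
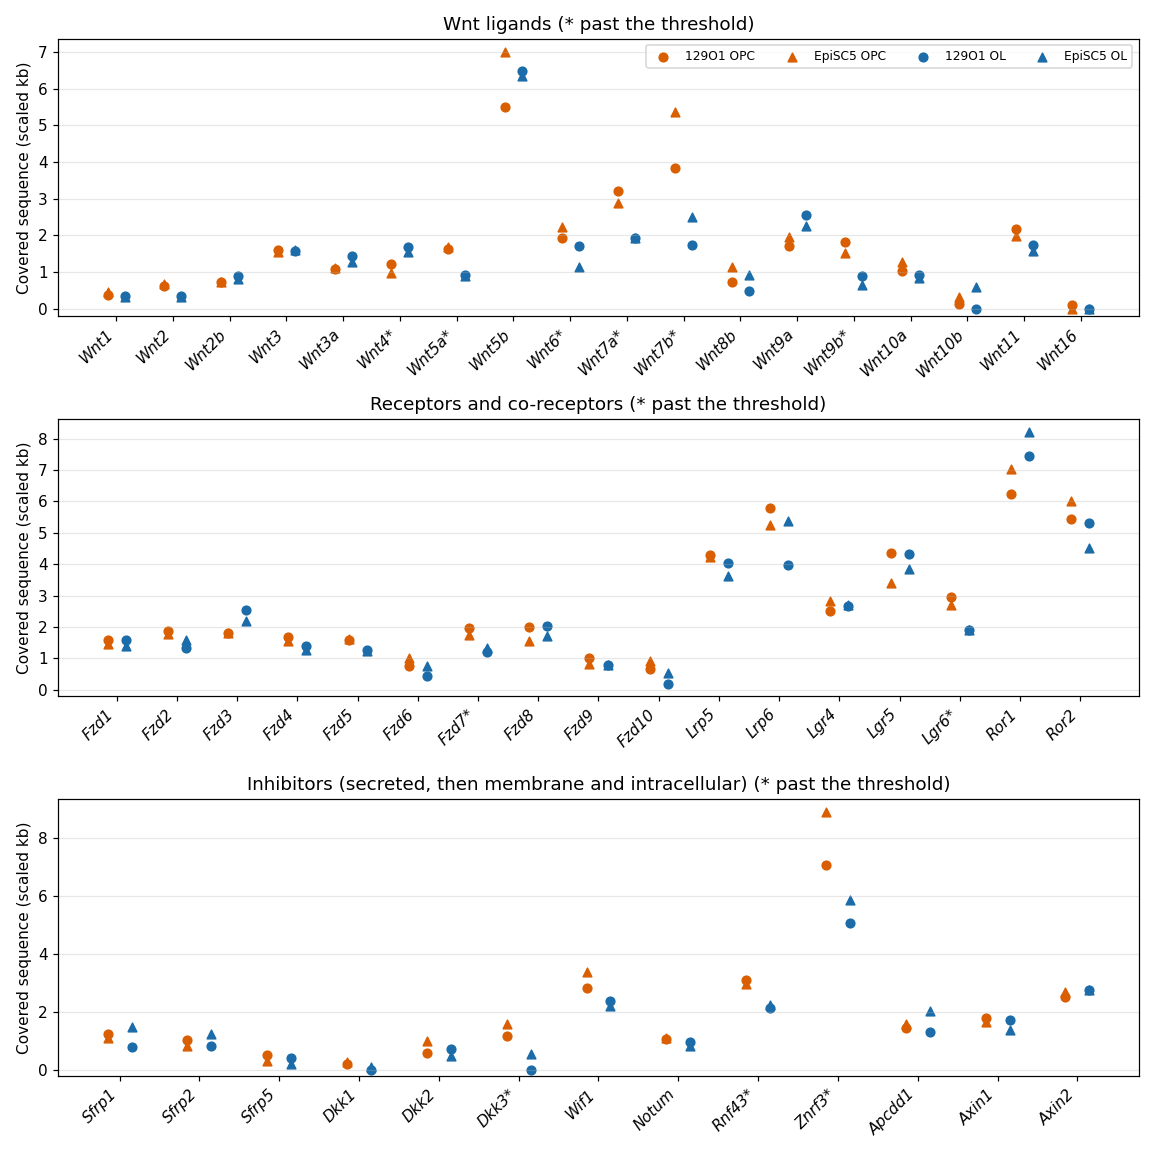
Scaled covered kb of each of the 48 genes in the 4 libraries, with OPC in orange, OL in blue, circles for 129O1 and triangles for EpiSC5, and an asterisk at genes past the threshold. Wnt7b, Znrf3 and Dkk3 show OL points below both OPC points, Wnt4 shows OL points above them, and Ror1 reaches 8.23 kb in EpiSC5 OLs.

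All 17 receptor and co-receptor genes were tested, and 2 fell, none rose and 15 did not pass. The share that fell, 11.8%, was near the 8.63% of all tested genes, of which 11.0% rose. Lgr6 encodes a receptor for R-spondins, which strengthen Wnt signals (chromosome 1, 134983300 to 135105374). It had 2.96 and 2.70 kb in OPCs and 1.90 and 1.91 kb in OLs of 129O1 and EpiSC5. The OL libraries agreed closely and lay below both OPC libraries. The fall was 1.44-fold (log2 -0.52, SE 0.15, limma adjusted p = 0.0212). The adjusted p was 0.121 without the 129O1 OPC, 0.0866 without the 129O1 OL and 0.0848 without the EpiSC5 OL library, 0.0619 without scaling and 0.228 by number of peaks. Besides the smaller coverage of its promoter window, an OPC-only region at 135020967 to 135021415 had 426 and 387 covered bp. Its paralogs Lgr4 and Lgr5 had log2 differences of 0.01 and 0.08.

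Fzd7 (chromosome 1, 59482147 to 59486955) encodes a Frizzled receptor of stem and progenitor cells. Its coverage was 1.97 and 1.73 kb in OPCs and 1.21 and 1.34 kb in OLs of 129O1 and EpiSC5. The cell types did not overlap. The fall was 1.39-fold (log2 -0.48, SE 0.16, limma adjusted p = 0.0432), and it was lost with any library left out (adjusted p from 0.0735 to 0.303) and without scaling (0.077). With 20 kb on either side the log2 difference was 0.27 (adjusted p = 0.225), and with the gene interval alone it was -0.08 (0.84). The merged region over the start had 1254 and 1202 covered bp in the OPC libraries, 1063 and 1228 bp in the OL libraries. The rest of the difference included an OPC-only region upstream of it, at 59481343 to 59481810, with 361 and 468 covered bp.

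The remaining Frizzled genes did not pass. Fzd10, singled out after its values were seen, had 0.672 and 0.916 kb in OPCs and 0.176 and 0.527 kb in OLs (log2 -0.92, limma adjusted p = 0.0564). Both OL values lay below both OPC values and were themselves apart. Fzd10 also did not pass without scaling (limma adjusted p = 0.194), with median-of-ratios scaling (0.188) or with a 50 bp pseudocount (0.0727). Fzd10 was called lower with 20 kb flanks (log2 -1.51, limma adjusted p = 0.0293), with a 1000 bp pseudocount (-0.42, 0.0381), by limma without trend (0.042), without the 129O1 OPC library (0.0461) and without the EpiSC5 OL library (0.0117). Fzd1, Fzd2, Fzd4, Fzd5, Fzd6, Fzd8 and Fzd9 had log2 differences from -0.48 (Fzd6) to 0.07 (Fzd8), and Fzd3 had 0.35. In Fzd2, Fzd4, Fzd5, Fzd6, Fzd7, Fzd9 and Fzd10 both OL libraries lay below both OPC libraries, and in Fzd3 above. Over all tested genes 28.1% lay below and 27.4% above in this way. The covered sequence of Fzd4 lies wholly in other gene regions as well.

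The co-receptor genes Lrp5 and Lrp6 and the Ror genes had many peaks and did not pass. Lrp6 had 5.81 and 5.27 kb in OPCs and 3.98 and 5.38 kb in OLs of 129O1 and EpiSC5. The 129O1 line had a log2 difference of -0.52 and EpiSC5 one of 0.03, so the lines moved in opposite directions. Lrp5 had 4.28 and 4.22 kb against 4.04 and 3.61 kb. Ror1, a gene of 349 kb, had 6.24 and 7.04 kb in OPCs and 7.46 and 8.23 kb in OLs (log2 0.23, limma adjusted p = 0.244). Ror2 had 5.44 and 6.03 kb against 5.33 and 4.51 kb (log2 -0.22, adjusted p = 0.334). The Ror1 region held 8 OL-only and 7 OPC-only regions, and that of Ror2 held 6 and 5. Lrp6 held 6 OL-only and 7 OPC-only regions. These counts were out of 51 regions in Ror1, 35 in Ror2 and 39 in Lrp6. Over all coding gene regions 16.82% were OL-only and 8.84% OPC-only. The counts of single genes were not tested.

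Of the 8 secreted inhibitor genes, 6 were tested, 1 fell (16.7%) and none rose, where 8.63% of all tested genes fell and 11.0% rose. Dkk3, a divergent member of the Dickkopf family, lies on chromosome 7 (112116019 to 112159482). It had 1.17 kb in 5 peaks in 129O1 OPCs and 1.59 kb in 6 peaks in EpiSC5 OPCs. In OLs it had no listed peak in 129O1 and 0.567 kb in 3 peaks in EpiSC5. The OPC libraries were both above the OL libraries, which differed from each other. The fitted difference was -2.00 on the log2 scale (SE 0.41, limma adjusted p = 0.00195), -2.78 in 129O1 and -1.22 in EpiSC5. Since 1 OL library is at 0, the size depends on the pseudocount: it was -3.01 with 50 bp and -0.92 with 1000 bp, and -1.03 without the 129O1 OL library (adjusted p = 0.00284). The adjusted p was 0.126 without scaling, 0.0942 with median-of-ratios scaling, 0.0627 without the coverage filter, 0.0861 by number of peaks, 0.0725 by 200 bp around the summits and 0.221 with 20 kb flanks. The region held 3 OPC-only regions and no OL-only or shared region. The one with the most sequence spanned 112147924 to 112148425, with 408 and 502 covered bp and an authors' fold enrichment of 10.04 and 10.02. None of the Dkk3 coverage lay within 1 kb of a gene end.

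Sfrp2 (chromosome 3, 83765750 to 83774314), singled out after its values were seen, had 1.03 and 0.835 kb in OPCs and 0.816 and 1.25 kb in OLs of 129O1 and EpiSC5. The cell types overlapped and the sum did not pass (log2 0.11, limma adjusted p = 0.798). Its layout differed more than its sum. Both OPC libraries had 1 peak, over the start, with 1003 and 927 covered bp. The OL libraries had 236 and 233 bp of that region and 3 and 5 peaks in all. OL-only regions lay at 83770595 to 83771243, inside the gene, and at 83774516 to 83774714, past its far end. By number of peaks the gene was called higher in OLs (log2 1.21, limma adjusted p = 0.0429), where 2.74% of all genes were.

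Wif1, which encodes a secreted protein that binds Wnts, had 2.83 and 3.38 kb in OPCs and 2.37 and 2.20 kb in OLs of 129O1 and EpiSC5. The OL values lay below the OPC values without passing the test (log2 -0.41, limma adjusted p = 0.0764). Wif1 also did not pass without scaling (limma adjusted p = 0.134) or with median-of-ratios scaling (0.126). Wif1 was called lower with the gene interval alone (log2 -0.53, adjusted p = 0.0422), with 20 kb flanks (-0.59, 0.0136) and without the 129O1 OPC library (-0.53, 0.0471). Sfrp1, a relative of Sfrp2, had 1.24 and 1.12 kb against 0.811 and 1.48 kb, and the OL libraries lay on either side of the OPC libraries. Notum, an enzyme that removes the lipid from Wnts, had 1.06 and 1.12 kb against 0.964 and 0.835 kb (log2 -0.23, adjusted p = 0.43). Notum was called lower in the better 50% of each list (log2 -1.83, limma adjusted p = 0.0333) and with the gene interval alone (-0.56, 0.0491). It did not pass without scaling (limma adjusted p = 0.144) or with median-of-ratios scaling (0.267). Dkk2, another Dickkopf gene, had a log2 difference of -0.30, with 0.21 in 129O1 and -0.82 in EpiSC5. Sfrp5 stayed under the coverage minimum, at 0.218 to 0.516 kb.

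Of the 5 inhibitors at the membrane or in the cytoplasm, 2 fell and none rose, where 8.63% of all tested genes fell and 11.0% rose. Both that fell, Znrf3 and Rnf43, are paralogous ubiquitin ligases that remove Frizzled receptors from the cell surface and are countered by R-spondins with Lgr receptors. Znrf3 (chromosome 11, 5276329 to 5444847) had 7.08 and 8.89 kb in OPCs and 5.06 and 5.87 kb in OLs of 129O1 and EpiSC5. All OL values lay below the OPC values. The fall was 1.44-fold (log2 -0.53, SE 0.14, limma adjusted p = 0.0138), with an adjusted p of 0.119 without the EpiSC5 OPC library, 0.125 without the 129O1 OL library, 0.166 without scaling and 0.139 with median-of-ratios scaling or by number of peaks. Its region held 8 OPC-only and 5 OL-only regions. The OPC-only region with the most sequence was at 5346589 to 5347216 (511 and 623 covered bp), and the OL-only one at 5308045 to 5308520 (226 and 476 bp).

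Rnf43 (chromosome 11, 87663087 to 87735539) had 3.11 and 2.98 kb in OPCs and 2.14 and 2.25 kb in OLs of 129O1 and EpiSC5. The cell types were separate, and the libraries within each differed little. The fall was 1.36-fold (log2 -0.44, SE 0.15, limma adjusted p = 0.0469), and it was lost with any library left out (adjusted p from 0.0975 to 0.185) and without scaling (0.0917). Its region held no OPC-only and no OL-only region, so that the difference lay in the width of peaks and in peaks of other patterns. By number of peaks its log2 difference was 0.00 (adjusted p = 0.994), with 8 and 8 peaks in OPCs and 7 and 11 in OLs.

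Axin1 and Axin2 encode scaffolds of the complex that degrades beta-catenin, and Axin2 is itself a common target of the pathway. Axin2 had 2.53, 2.70, 2.77 and 2.75 kb in 129O1 OPCs, EpiSC5 OPCs, 129O1 OLs and EpiSC5 OLs. The OL libraries lay just above the OPC libraries, and the difference did not pass (log2 0.07, limma adjusted p = 0.816) and was -0.04 without scaling. Axin1 had 1.79 and 1.66 kb in OPCs and 1.73 and 1.38 kb in OLs, and Apcdd1, a membrane inhibitor of Wnt signals, 1.46 and 1.59 kb against 1.32 and 2.05 kb. Both overlapped between cell types.

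Counted as regions, the set was about even between the cell types. Merging the peaks of the 4 lists gave 514 regions over the 48 genes. Of these, 131 were shared by the 4 libraries, 64 were OL-only and 63 OPC-only. The OL-only share was 12.45% and the OPC-only share 12.26%. Over all coding gene regions these shares were 16.82% and 8.84%, so that OPC-only regions made up more of the Wnt regions and OL-only regions less. No test was made of these shares. In the better 50% of each list the counts were 33 OL-only and 36 OPC-only. They depend on each library, since a single remaining library then suffices, and were 119 OL-only without the 129O1 OL library whereas OPC-only regions numbered 112 when the 129O1 OPC library was left out and 134 for the EpiSC5 one.

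Ligand genes held 18 OL-only and 19 OPC-only regions of 159. Receptor genes held 32 and 30 of 234, secreted inhibitors 6 and 6 of 47 and the other inhibitors 8 and 8 of 76, with 2 regions counted under more than 1 gene. For genes with a listed start, none of 38 OL-only and 4 of 31 OPC-only regions touched the 1 kb on either side of a start site, while 35 of 88 shared regions did. Over all coding genes these shares were 2.37%, 11.6% and 38.04%. Of the 131 shared regions, 76 (58.0%) were narrower in both OL libraries than in either OPC library and 18 (13.7%) wider, against 51.3% and 13.1% over all coding genes. The shared Wnt regions had median covered widths of 376 and 415 bp (OPCs) and 299 and 313 bp (OLs). The lists as a whole had median peak widths of 201 and 237 bp (OPCs) and 190 and 192 bp (OLs), and what this difference adds to the values of single genes was not tested.

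**Figure D5:**
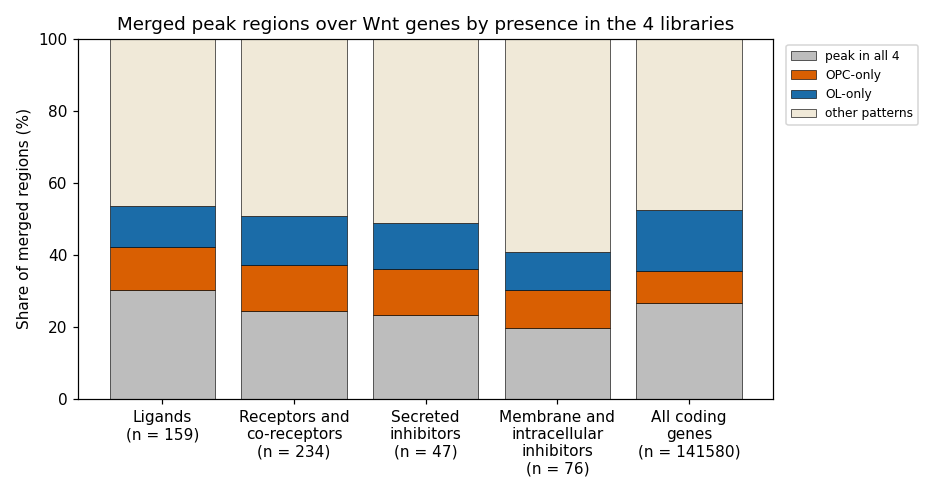
Share of merged peak regions (percent) with a peak in all 4 libraries (grey), in both OPC libraries only (orange), in both OL libraries only (blue) or in other combinations (cream), by role and for all coding genes. OPC-only and OL-only shares are close to each other in each role, whereas over all coding genes OL-only regions take 16.82% and OPC-only regions 8.84%.

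The wider pathway was described with lists of other genes. Of its 72 genes outside the set, 65 were tested, 5 rose and 4 fell, 7.69% and 6.15%, with a median log2 difference of -0.02. Over all tested genes 11.0% rose and 8.63% fell, so both shares of the pathway lists were below those of all genes. Among genes for secretion, extracellular partners and other receptors, 1 of 17 rose and 1 fell. Reck, the membrane protein through which Wnt7a and Wnt7b signal to endothelial cells, rose from 1.72 and 2.03 kb in OPCs to 2.85 and 2.94 kb in OLs (log2 0.58, limma adjusted p = 0.0132), lost without any library other than the EpiSC5 OPC one (up to 0.089). Ndp, which encodes a ligand of Fzd4, fell from 1.84 and 1.81 to 1.16 and 1.13 kb (log2 -0.59, adjusted p = 0.0128), lost without any library other than the 129O1 OL one (up to 0.0817). In both genes the cell types were separate.

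Of the 26 cytoplasmic and nuclear transducers 3 rose and 1 fell. Gsk3b, the kinase that marks beta-catenin for degradation, rose from 4.18 and 3.15 kb to 5.85 and 6.19 kb (log2 0.70, limma adjusted p = 0.00312). Tnks, which modifies Axin and leads to its loss, rose from 2.85 and 2.47 kb to 4.73 and 4.69 kb (log2 0.78, adjusted p = 0.00104). Btrc, which encodes a subunit of the ubiquitin ligase for beta-catenin, had a log2 difference of 0.51 (adjusted p = 0.0178), lost without either OL library (up to 0.121). Apc2 fell, with 1.25 and 1.53 kb in OPCs and 0.694 and 0.737 kb in OLs (adjusted p = 0.0044, with 32.7% of its coverage shared), and was lost without the EpiSC5 OPC library (0.11). Of 12 planar polarity genes, Prickle2 fell (log2 -0.52, adjusted p = 0.0128), though not without the 129O1 OL library (0.177). Among 12 tested target genes outside the set, the cyclin gene Ccnd1 fell (log2 -0.94, adjusted p = 0.00072, with 34.0% of its coverage shared with other genes) and the growth factor gene Bmp4 rose (log2 0.71, adjusted p = 0.0153, and up to 0.14 without the 129O1 OL or the 129O1 OPC library). Of these 9 calls, those of Ndp and Ccnd1 stood without scaling, and the 5 genes that rose then had adjusted p from 0.0631 (Tnks) to 0.18 (Btrc). By number of peaks Tnks alone passed (log2 1.02, limma adjusted p = 0.0251), and the others had adjusted p from 0.0579 (Ccnd1) to 0.437 (Apc2). With 20 kb flanks Reck was at 0.17 (adjusted p = 0.362), Btrc at 0.32 (0.0875) and Apc2 at -0.23 (0.26), and by 200 bp around the summits Apc2 was at -0.096 (0.85). In the better 50% of each list Tnks (0.38, adjusted p = 0.295), Ccnd1 (-0.73, 0.0676), Ndp (-0.56, 0.363) and Prickle2 (-0.36, 0.233) did not pass.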

How the data were processed

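The labels give 4 libraries, OPC and OL of the lines 129O1 and EpiSC5. The submitters' processing notes name mm10 and the tools MACS2, Picard, Trim Galore (0.3.1) and Bowtie2 (2.3.2). For settings, read shifting and duplicates, the entry is: not given in the sources used here. Each deposited file is a peak list of 10 columns, 1 per library and not pooled. Per peak they hold a deposited score, a fold enrichment (a linear ratio by the authors' caller), −log10 p and −log10 q values, and a summit. The fold was used only to describe peaks. Read counts were not used here: the depth is unknown, and values carry no counting interval.

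Computed here, with Python 3.11.15 and pandas 2.3.3: covered bp per coding gene interval plus 2 kb on each side, scaled to the mean list total, and kept at a mean of at least 500 bp. OL and OPC were compared on log2(bp + 200) with limma 3.58.1 in R 4.3.3 (trend, two-sided, Benjamini-Hochberg over all 14543 tested genes). The fit was tested on simulated data with noise of the observed spread, where 100 genes were changed by a log2 of 1 and 100 by 2. It called 38 of the former and 67 of the latter, with 2 false calls. A gene that did not pass may therefore still differ. The simulation gave 107 calls in all, against 2857 in the data, and the adjusted p depends on how many genes differ. These recovery figures thus need not hold for the data. OPC and OL of a cell line pair by origin: line differences in the 2 cell types correlated at 0.287 across genes. The main fit had no block. Regions are overlapping or touching peaks merged over the 4 lists, present by an overlap of at least 1 bp. Promoter windows came from RefSeq on GRCm38.p6; for the 16 genes without one no promoter window is described.

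The members and gene lists were chosen with earlier results of these data known. Genes were named for a full account where they passed the threshold, were among the 3 with the most coverage in their role or had peaks in only 1 cell type. Sfrp2, Dkk1 and Fzd10 were added after their values were seen. The remaining members appear with brief values, chosen after they were seen, since every member is accounted for. Of each other pathway list, up to 3 called genes per direction are named. Alternatives changed the scaling, pseudocount, filter, measure, peak threshold, flanks, model and libraries.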

Additional observations from a re-analysis of the deposited data

Results flagged for a closer look

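In 9 of the 42 tested genes the OL minus OPC difference had opposite signs in the 2 lines (log2 of covered bp plus 200). The gap was widest for Dkk2, at 0.21 in 129O1 and -0.82 in EpiSC5. For Sfrp1 the values were -0.51 and 0.35, for Sfrp2 -0.28 and 0.49, and for the co-receptor gene Lrp6 -0.52 and 0.0295. Apcdd1 had -0.13 and 0.33, and Wnt5b 0.23 and -0.14. In Wnt3 (-0.0283 and 0.0492), Lgr4 (0.0831 and -0.0584) and Lgr5 (-0.00442 and 0.171) both values were small. With 1 library per cell type in each line these differences between lines were not tested. Of all 14543 tested genes, 3710 had opposite signs.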

How the results depend on the processing

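Of the main counts, 10 genes lower, 1 higher and 2857 of all genes called, most of the following moved by over 1.5 times. The ranges with a library left out include smaller moves, and the counts with the replicate block moved less. Without scaling 2 genes were lower, 0 higher and 583 of all called, and the median of all genes was -0.13 in place of -0.02, that of the set -0.35 in place of -0.24. Median-of-ratios scaling gave 4 lower, and no coverage filter 5 lower and 0 higher. By number of peaks 1 was lower and 560 of all were called (71.1% of them higher, against 56.1%), and with 200 bp around the summit 1 was lower, 0 higher and 742 called. The better 50% of each list by q gave 6 lower and 1632 called, 20 kb flanks 3 higher, and limma without trend 0 higher. Without gene ends and promoter windows, chosen after seeing the data, 6 were lower and 2 higher. Only 26 members were tested there, so the lower share was 23.1%, against 23.8% in the main fit. Tested members numbered 33 with 200 bp around the summit and 38 in the better 50% of each list. They numbered 48 without the coverage filter or with 20 kb flanks, against 42 in the main fit. With a library left out, where the lone library of a cell type is assumed to vary like the others, 6 to 8 genes were lower, 0 to 1 higher and 1869 to 2294 of all called. OL-only regions numbered 75 to 119 and OPC-only 69 to 134 with a library left out, against 64 and 63, and 33 and 36 in the better 50% of each list. Promoters with a peak in all 4 lists numbered 13 there, against 24. With the replicate block (cell line) 9 were lower, 1 higher and 2908 of all called; only the Wnt6 call was lost among the 11 (adjusted p = 0.0908).

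Signs turned for genes that did not pass, apart from Rnf43 and Fzd7. Without scaling Axin2 was at -0.038 and Wnt5b at -0.072. By number of peaks Notum was at 0.22, Rnf43 at 0.0036, Sfrp1 at 0.086 and Wnt5b at -0.15, and with 200 bp around the summit 0.22, 0.028, 0.078 and -0.15. In the better 50% of each list Axin2 was at -0.080, Sfrp2 at -0.35 and Wnt5b at -0.19. With the gene interval alone Sfrp1 was at 0.00098, Sfrp2 at -0.26 and Wnt5b at -0.051. With 20 kb flanks Axin2 was at -0.14, Fzd7 at 0.27, Notum at 0.092, Sfrp1 at 0.17 and Wnt5b at -0.018. With a library left out Wnt5b reached -0.12 to 0.21, Sfrp1 -0.45 to 0.29 and Sfrp2 -0.15 to 0.37. The cause of these moves was not tested. Depth limits what a missing peak shows.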
